A study of Mus musculus with 42 samples.

Results

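The mouse collagen genes were read across 42 RNA-seq libraries of colon crypts and colon tumors. Members were all rows whose symbol has the form Col, a number, a and a number, which gave 44 genes of the 20449 genes listed in any of 9 tables of normalised counts. The tumor table listed all 44, and each crypt table listed between 35 and 38 of them. The crypts had been freed from 5 cm of proximal colon (counted from the cecum) or distal colon (counted from the anus) by EDTA chelation and shaking, a preparation that enriches epithelium, while each tumor was homogenised whole. The study asked how MTG16, a transcriptional corepressor, acts in colonic epithelium, so the collagens were read here both as a measure of stroma in each library and as genes that crypt libraries themselves carried.

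All mice were C57/BL6 and at least 8 weeks old. Mtg16-/- mice, which carry a germline deletion, and mice homozygous for the P209T allele (Mtg16 T/T), a point mutation that weakens binding of MTG16 to E protein transcription factors, were bred in independent colonies from heterozygous parents and compared with WT littermates. Untreated proximal crypts gave 2 libraries for each of Mtg16-/-, its WT, Mtg16 T/T and its WT. Untreated distal crypts gave 4 Mtg16-/-, 4 WT of that colony, 4 Mtg16 T/T and 3 WT of that colony. Distal crypts after 2% dextran sulfate sodium (DSS) for 5 days, a drinking-water agent that injures colonic epithelium, and 4 days of water gave 4 Mtg16-/- and 3 WT in the one colony, and 3 Mtg16 T/T and 3 WT in the other. Distal tumors gave 3 Mtg16 T/T and 3 WT libraries from mice of the T/T colony given the carcinogen azoxymethane at 10 mg/kg and 3 cycles of 3% DSS, each of 4 days of DSS and 16 days of water. The labels number the libraries of a group without saying that each is a separate mouse, so p-values measure the spread between libraries.

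Collagens are triple-helical proteins of the extracellular matrix. In the colon, fibroblasts, smooth muscle and vessels of the lamina propria and muscle wall make most fibrillar collagen (types I, III and V), which gives the wall its tensile strength, and type IV collagen forms the network of the basement membrane on which epithelium rests. Epithelial cells make a smaller repertoire, including the transmembrane collagen of hemidesmosomes and the anchoring fibrils of squamous epithelium. In bulk RNA, more cells of a type and more RNA per cell cannot be told apart.

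The promoters of 5 members that the results turn on are shown first, because E proteins, the transcription factors that MTG16 represses, bind the E box CANNTG. RefSeq windows on GRCm38.p6 ran from 250 bases before to 50 bases after each annotated start and were found for 35 of the 44 members. Col16a1 and Col8a1 carried the highest collagen levels in untreated crypts, Col4a1 and Col4a2 marked distal crypts, and Col3a1 was the highest collagen gene in tumors. The windows were chr4:130047590-130047889 on the plus strand for Col16a1, chr16:57754688-57754987 on the minus strand for Col8a1, chr8:11312777-11313076 on the minus strand for Col4a1, chr8:11312555-11312854 on the plus strand for Col4a2 and chr1:45311288-45311587 on the plus strand for Col3a1. Each is given 5′ to 3′ with every CANNTG in capitals. The motif is its own reverse complement in form, so a single scan covers both strands.
Col16a1: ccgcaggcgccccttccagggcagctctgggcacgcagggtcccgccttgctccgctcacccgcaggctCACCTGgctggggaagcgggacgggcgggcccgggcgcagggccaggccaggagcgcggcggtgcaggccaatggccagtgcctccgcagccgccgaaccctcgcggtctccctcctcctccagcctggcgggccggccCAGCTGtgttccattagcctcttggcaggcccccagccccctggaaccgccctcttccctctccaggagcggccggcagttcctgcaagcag
Col8a1: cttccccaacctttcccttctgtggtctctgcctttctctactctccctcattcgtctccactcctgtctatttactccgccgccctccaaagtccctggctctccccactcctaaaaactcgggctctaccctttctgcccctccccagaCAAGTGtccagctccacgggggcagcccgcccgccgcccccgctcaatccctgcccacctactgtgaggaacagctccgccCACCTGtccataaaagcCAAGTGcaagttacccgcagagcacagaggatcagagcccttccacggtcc
Col4a1: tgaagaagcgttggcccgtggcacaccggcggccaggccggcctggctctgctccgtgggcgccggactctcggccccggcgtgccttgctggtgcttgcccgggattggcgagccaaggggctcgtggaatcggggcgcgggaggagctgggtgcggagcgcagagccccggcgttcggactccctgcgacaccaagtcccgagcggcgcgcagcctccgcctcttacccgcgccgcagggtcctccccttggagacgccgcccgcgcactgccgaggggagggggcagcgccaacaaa
Col4a2: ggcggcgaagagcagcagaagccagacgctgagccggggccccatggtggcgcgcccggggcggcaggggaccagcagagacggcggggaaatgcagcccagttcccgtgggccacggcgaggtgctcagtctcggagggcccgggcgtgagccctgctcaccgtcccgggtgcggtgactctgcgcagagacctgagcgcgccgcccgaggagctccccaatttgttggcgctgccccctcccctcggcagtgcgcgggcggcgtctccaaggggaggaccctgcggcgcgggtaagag
Col3a1: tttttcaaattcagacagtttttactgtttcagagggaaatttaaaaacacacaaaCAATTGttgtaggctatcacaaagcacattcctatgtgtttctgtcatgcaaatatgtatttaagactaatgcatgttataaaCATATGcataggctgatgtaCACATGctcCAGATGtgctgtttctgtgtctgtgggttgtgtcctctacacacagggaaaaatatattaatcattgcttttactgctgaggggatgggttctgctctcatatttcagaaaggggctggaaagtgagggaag

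The Col16a1 window held 2 E boxes and the Col8a1 window held 3, against at least 1 in 72.31% of all 32851 promoters, at least 2 in 39.64% and at least 3 in 17.61%. The Col3a1 window held 4, and at least 4 were held by 6.487% of promoters. The divergent Col4a1 and Col4a2 windows held none, lay head to head with starts 21 bases apart and shared 78 bases. They were also rich in CpG, with 37 and 33 CpG dinucleotides, where the Col3a1 window had 0 and the median promoter 7. Of 38 collagen windows, 20 (52.63%) held an E box. A match is a description of these letters and not a bound site.

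Depth ranged from 32231389 to 74661922 reads (median 46659626) in the 38 libraries whose whole reads could be recovered from the normalised counts. Cbfa2t3, the mouse gene for MTG16, had 7.48 to 24.0 normalised counts per 1000000 (CPM) in Mtg16-/- crypts and 23.0 to 63.9 in WT crypts. The highest Mtg16-/- value was in the library labelled distal replicate 2, which also went against its region. Of 5824 genes called between WT distal and WT proximal crypts, it lay nearer the distal mean for 24.66%, whereas the other 14 distal libraries did so for 78.66% to 96.91% and the 8 proximal libraries for 4.825% to 22.89%. Member values and limma tests between genotypes that rest on it are given with and without it, and the edgeR and DESeq2 counts with it only. A further 3 untreated crypt libraries stood apart by smooth muscle markers (7 genes summed), namely Mtg16-/- proximal replicate 1, Mtg16 T/T proximal replicate 2 and Mtg16 T/T distal replicate 4, which held 32.0 to 78.4 CPM where the other 20 held 0.896 to 4.95.

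Whole tumors carried far more collagen RNA than crypts. Summed over all members, the 6 tumors held 5263 to 7774 CPM (median 6074), and the 36 crypt libraries held 23.9 to 119.8 CPM (median 41.2). The tumor median was 144 times that of the 7 untreated WT distal crypt libraries. No crypt library reached the lowest tumor. Tumors and crypts sit in different tables, sequencing requests and dissections, so the ratios are descriptions with no test.

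**Figure D1:**
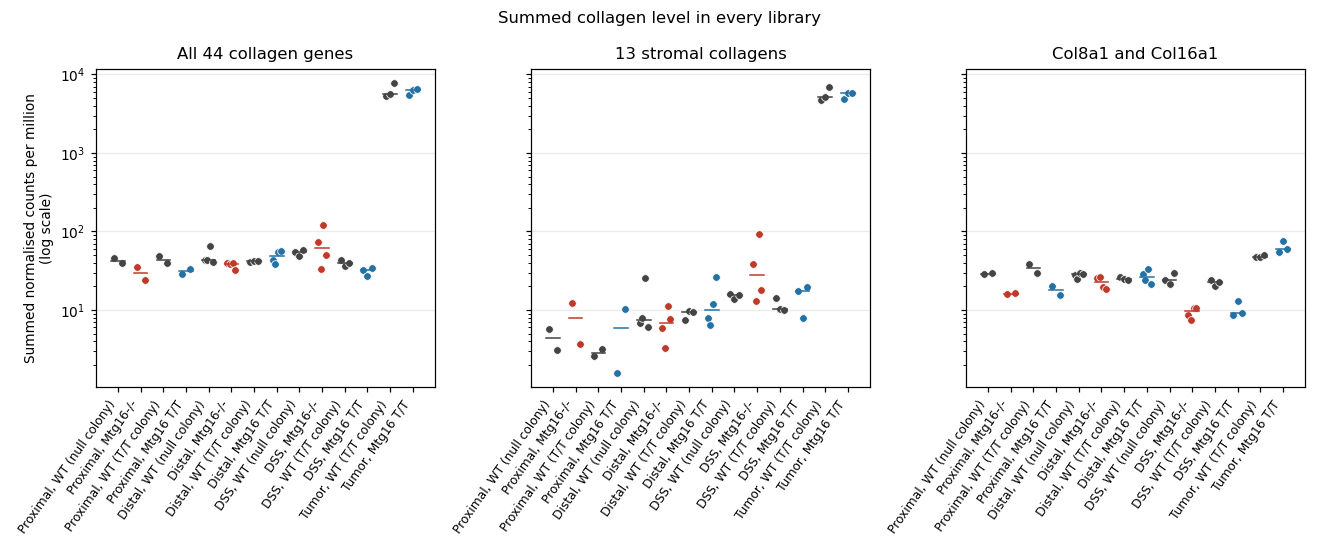
Summed CPM in each of the 42 libraries by group on a log axis, for all 44 collagen genes, for a panel of 13 stromal collagens and for Col8a1 with Col16a1, each point a library and each line a group median. In the sum over all genes the 6 tumors lie at 5263 to 7774 CPM, above all crypt libraries at 23.9 to 119.8 CPM.

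The excess was not even across collagen classes. The 11 fibrillar genes together were 1162 times higher in tumors than in untreated WT distal crypts, the type VI beaded filament genes 1470 times, the type IV network genes 241 times and the multiplexins Col15a1 and Col18a1, which sit in basement membrane zones, 164 times. The short-chain network genes, which include Col8a1, were 1.36 times higher. Single members spanned the whole range. Col3a1 was 4595 times higher, Col1a2 4291 times, Col1a1 1634 times and Col4a1 229 times, while Col8a1 was 1.30 times, Col20a1 1.56 times, Col16a1 2.25 times, Col11a2 2.44 times and Col28a1 2.92 times higher. The largest ratios are rough, since their crypt levels were low and spread. Col3a1 ran from 0.113 to 1.46 CPM (median 0.283) and Col1a2 from 0.0789 to 0.817 (median 0.145) in the untreated WT distal crypts. Against the 6 WT crypt libraries after DSS the ratio was 424 for the fibrillar class, 795 for Col3a1, 826 for Col1a2, 249 for Col1a1 and 213 for Col4a1. A stromal panel of 13 collagens, named further on, was 685 times higher in tumors than in untreated WT distal crypts and 390 times higher than in those after DSS. With untreated crypts as the base, Col8a1, Col20a1, Col16a1, Col11a2 and Col28a1 were the only members under a ratio of 5 among the 21 members whose crypt level cleared the floor of 3 counts. For 39 of the 44 members every tumor lay above every untreated WT distal crypt library, as it did for 6770 of 14199 genes with a mean of at least 1 CPM.

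**Figure D2:**
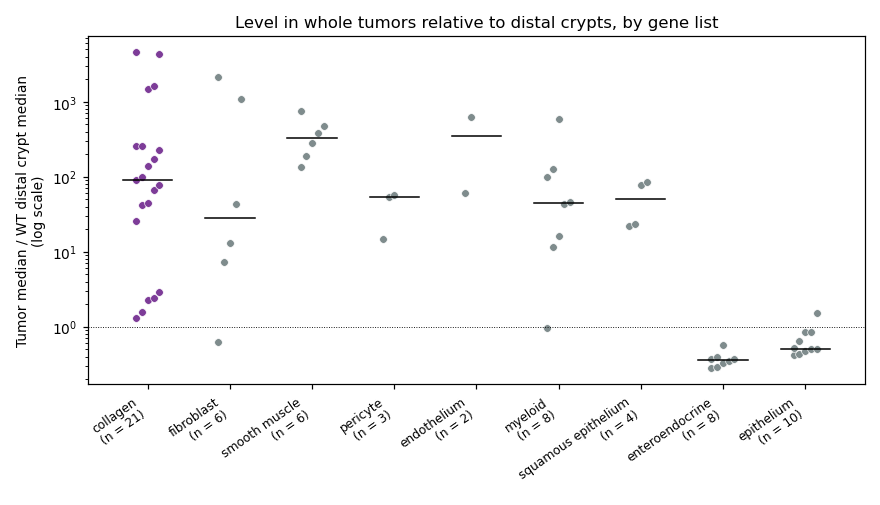
Ratio of the median CPM over 6 tumors to that over 7 untreated WT distal crypt libraries on a log axis, for collagen members and for markers of other cell types. Only genes whose crypt level cleared the floor of 3 counts are drawn. Collagens run from 1.30 to 4595 with a median of 89.0, beside a median of 331 for smooth muscle and 0.510 for epithelial markers.

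The marker lists set a rough scale for these ratios. A gene under the floor in crypts has no ratio, as for Pdgfra of the fibroblast list, at a median of 114 CPM in tumors and 0.0239 in crypts. The list medians thus leave out genes near absent from crypts, and how many differs by list. The median ratio was 89.0 over the 21 collagens, 28.0 over 6 of 12 fibroblast markers, 331 over 6 of 7 smooth muscle markers, 53.5 over 3 of 5 pericyte markers, 347 over 2 of 7 endothelial markers, 44.8 over 8 myeloid markers and 50.2 over 4 of 8 squamous markers. Epithelial markers (10 genes, among them Epcam and Krt8) had a median of 0.510, enteroendocrine markers 0.363, enteric glia markers 2.38 over 2 of 6 genes and all 13364 genes with a ratio 1.32. A ratio over 10 was reached by 76.2% of those collagens and by 8.04% of those genes. Tumors were higher in the medians of collagens and in stromal, vascular, muscle and myeloid markers together, and lower in those of epithelial markers.

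The order of levels changed with the tissue. Per kb of transcript, untreated WT proximal crypts were led by Col8a1 at a median of 3.27 CPM per kb (3.06 to 4.50, n = 4), followed by Col16a1 at 0.628 (0.474 to 0.683). Their ranges did not overlap. Untreated WT distal crypts were led by Col16a1 at 2.90 (2.14 to 3.31, n = 7), then Col8a1 at 0.911 (0.642 to 1.67) and Col4a1 at 0.518 (0.356 to 2.61), and here Col8a1 and Col4a1 overlapped. Tumors were led by Col3a1 at 132 (108 to 165, n = 6), Col4a1 at 119 (106 to 161), Col1a1 at 97.6 (80.9 to 150) and Col4a2 at 88.7 (75.2 to 124), and each of these neighbours overlapped the next.

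Col8a1 encodes a short-chain network collagen and Col16a1 a fibril-associated collagen that lies at the surface of fibrils. Together they made up 38.1% to 80.0% of all collagen counts in the 23 untreated crypt libraries (median 62.8%), and 0.639% to 1.19% in tumors. The 13 genes of a stromal panel (types I, III, V, VI, XII, XIV and XV with Col4a1 and Col4a2) made up 5.32% to 46.6% of the collagen counts of untreated crypts (median 18.4%) and 88.8% to 90.3% of those of tumors. The 3 libraries with smooth muscle markers held 4.79 to 15.0 CPM of Col1a1, Col1a2 and Col3a1 summed, and the other 20 held 0.357 to 3.29. Their Dcn, a fibroblast proteoglycan, was 4.85 to 5.59 CPM against 0.143 to 2.07. The sum of Col8a1 and Col16a1 was 15.4 to 21.2 CPM in them and 16.4 to 38.4 in the others. The fibrillar genes were highest in the libraries with the most smooth muscle RNA, and the Col8a1 and Col16a1 sum was not, as a description of 3 libraries. All 3 came from Mtg16-/- or Mtg16 T/T mice, and the others held every untreated WT library of both regions. Genotype and region were thus not held apart from smooth muscle RNA.

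**Figure D3:**
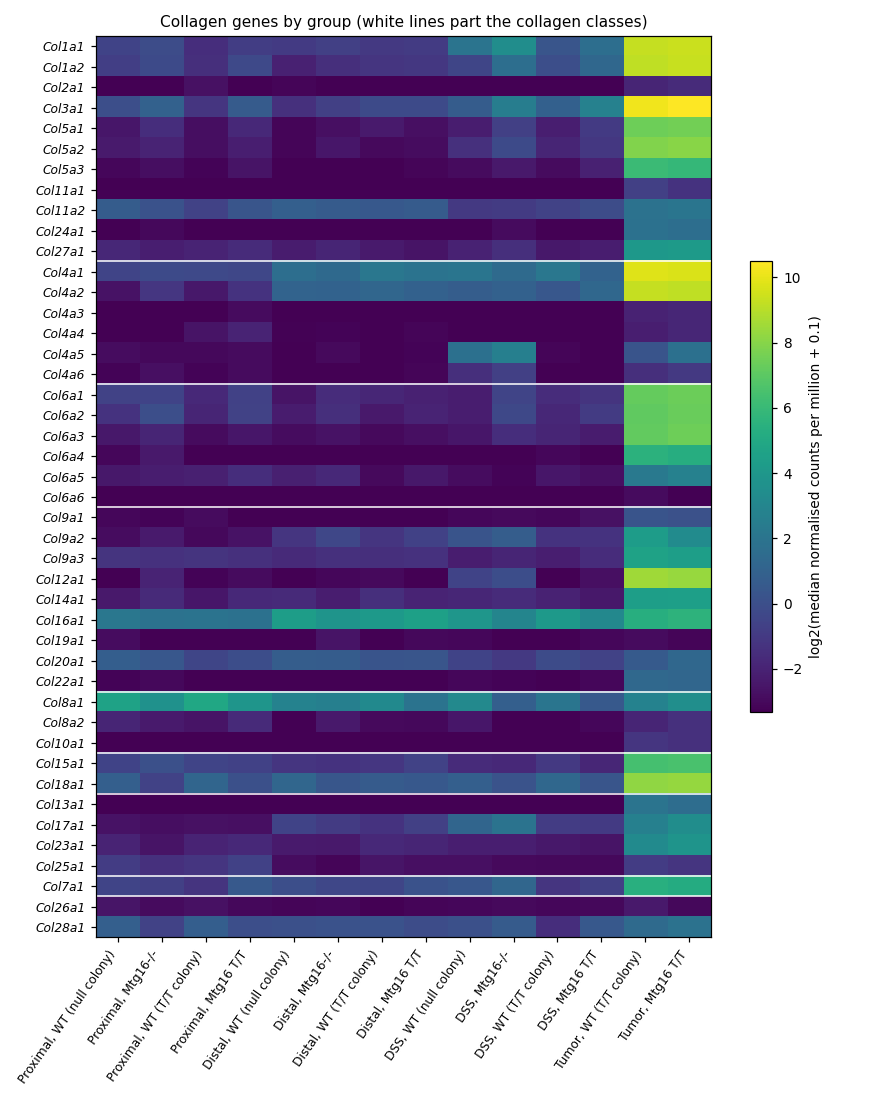
Median level of each collagen gene (rows, in classes parted by white lines) in each of the 14 groups (columns), coloured by log2(median CPM + 0.1). In the 8 untreated crypt groups the highest levels are those of Col8a1 and Col16a1, and in both tumor groups those of fibrillar and type IV genes such as Col3a1 at a median of 1299 CPM over the 6 tumors.

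A second description asked which members peaked in the same library as the fibroblast markers within each of the 14 groups. Col1a2, a chain of type I collagen, shared its highest library with them in 11 groups, Col3a1 in 9, Col8a1 in 8, Col1a1 in 6 and Col16a1 in 3, and each count was the same without the library labelled Mtg16-/- distal replicate 2, a check added after seeing the data. For Col8a1 the count was 5 with Dcn alone and 3 with the smooth muscle markers, beside 5 and 6 over all genes. The median was 7 over the stromal panel (4 to 11) and 5 over all 13114 genes with a mean of at least 1 CPM. With the epithelial markers the panel shared its highest library in a median of 4 groups, and all genes in 5. Levels within a library share one total, so these counts carry no test.

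Member genes were sparse in crypts. The median level reached 1 CPM for 4 members in proximal crypts, 7 in distal crypts, 12 in distal crypts after DSS and 33 in tumors, of which 12 members exceeded 100 CPM. A total of 4 members were listed at 0 or not listed in every proximal crypt library, 7 in every distal one, 5 in every DSS one and 0 in tumors. Levels in tumors ran from 1299 CPM (median) for Col3a1 down to 0.0155 for Col6a6, and other abundant stromal members were Col12a1 at 348 CPM, Col18a1 at 310, Col5a2 at 249, Col5a1 at 184, Col6a1 at 157, Col6a3 at 157 and Col6a2 at 151. The 12 collagen breakdown genes summed to 1483 to 1920 CPM in tumors and 58.6 to 92.6 in untreated crypts. The 28 collagen maturation genes differed far less, at 1972 to 2202 CPM in tumors and 1099 to 1404 in untreated crypts. After DSS, crypts held 1354 to 2480 CPM of them, which overlapped tumors. Single genes of these lists differed more. Serpinh1, the collagen chaperone, was at 120 to 147 CPM in tumors and 0 to 1.53 in untreated crypts, and Mmp13, a collagenase, was at 226 to 518 CPM in tumors and 0 to 0.215 in untreated crypts.

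Distal and proximal WT crypts differed in 6 collagens, a share near that of all genes. Of 13841 genes tested, 42.1% were called between 7 distal and 4 proximal libraries, 20.1% higher and 22% lower in distal crypts, so calls among members have to be read against a large background. Of the 15 members with a mean of at least 10 normalised counts, 4 were higher and 2 lower in distal crypts (limma on log2 of the normalised count plus 1, Benjamini-Hochberg adjusted p under 0.05). The higher ones were Col16a1, Col4a1, Col4a2 and Col17a1, and the lower ones Col8a1 and Col28a1. The median difference over the 15 was 0.08 (log2).

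In normalised counts, Col16a1 ran from 644 to 980 in distal crypts (828 ± 130, SD, n = 7) and from 149 to 200 in proximal crypts (185 ± 24.4, n = 4), a log2 difference of 2.15 (SE 0.13, adjusted p = 2.2e-08). Col4a2, an alpha chain of the type IV network, ran from 46.2 to 209 against 1.59 to 4.14, a difference of 4.49 (SE 0.38, adjusted p = 4.3e-07). Its partner Col4a1 ran from 120 to 846 against 19.4 to 39.6, a difference of 2.75 (SE 0.44, adjusted p = 0.0002). The distal and proximal ranges did not overlap for these genes, although WT replicate 3 of the Mtg16-/- colony alone supplied the highest Col4a1 value, 19.5 CPM beside 2.66 to 3.33 in the other 3 libraries of its group. Col17a1, the transmembrane collagen of hemidesmosomes, ran from 12.4 to 37.1 against 0.796 to 4.85, a difference of 2.55 (SE 0.41, adjusted p = 0.00022).

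Col8a1 took the opposite direction. It ran from 222 to 613 normalised counts in distal crypts and from 1041 to 1638 in proximal crypts, a log2 difference of -1.90 (SE 0.25, limma adjusted p = 3.1e-05). Col28a1, a von Willebrand factor A domain collagen, ran from 30.5 to 57.5 against 62.8 to 88.9, a difference of -0.83 (SE 0.19, adjusted p = 0.0034). Again the ranges did not overlap, as held for 30% of all genes. All 6 calls held with any 1 library left out. Within sequencing request 4149, which holds 2 libraries of each region from the Mtg16-/- colony, Col8a1 differed by -1.36 (adjusted p = 0.068) and Col28a1 by -1.15 (adjusted p = 0.078), so both lost the call and kept the direction.

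**Figure D4:**
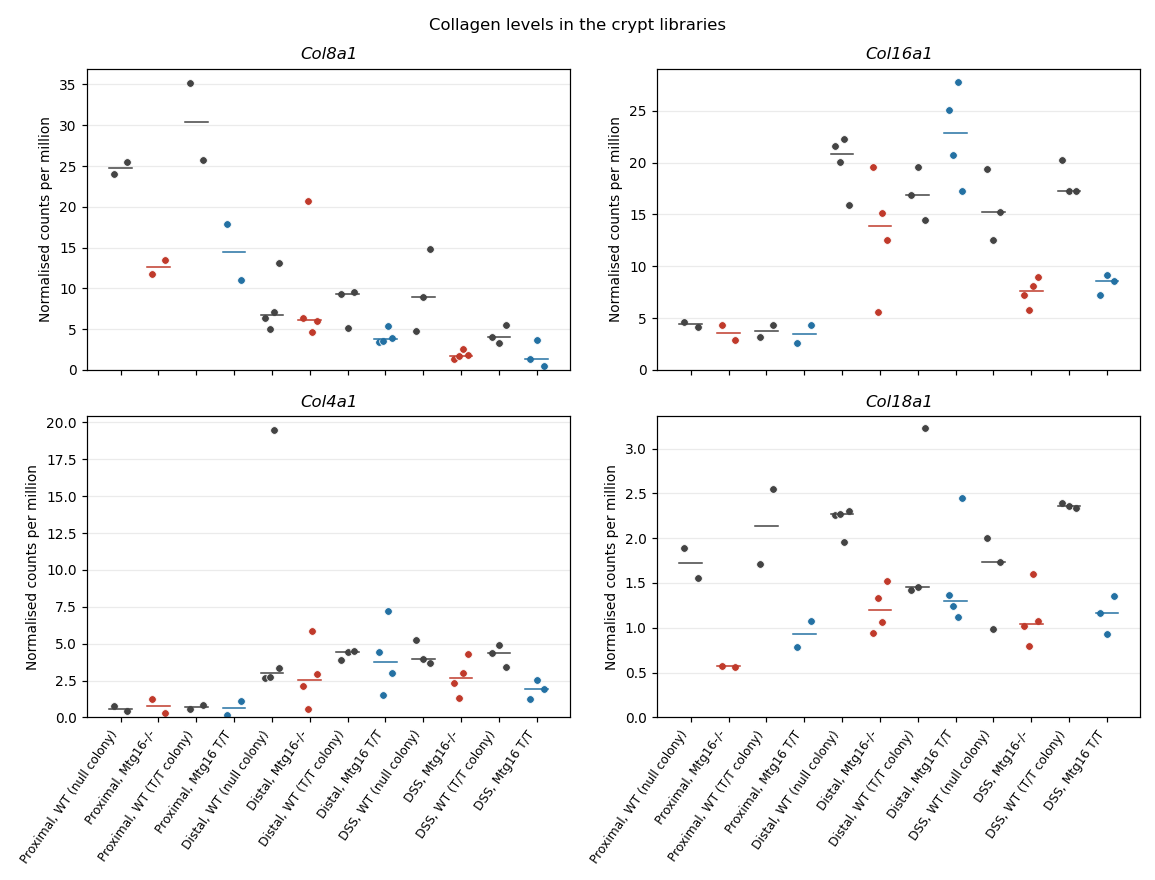
CPM of Col8a1, Col16a1, Col4a1 and Col18a1 in every crypt library by group, each point a library and each line a group median. In untreated WT crypts distal libraries lie above proximal ones for Col16a1 and Col4a1 and below them for Col8a1, and the library labelled Mtg16-/- distal replicate 2 stands at 20.7 CPM of Col8a1.

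Genes of stroma did not follow one direction between the regions. Of the stromal panel 6 genes were tested, Col4a1 and Col4a2 were higher and limma called none of the rest. With same-numbered libraries of a colony fitted as blocks, limma called Col15a1 too, lower by -1.10 (adjusted p = 0.0408). That fit called 2697 genes higher and 2935 lower. Of 5 fibroblast markers tested, 1 was higher (Gsn, an actin-severing protein, by 1.96) and 3 lower, among them Dcn by -1.48. The fibroblast sum was 335 to 412 CPM in WT distal crypts and 103 to 126 in WT proximal ones, and most of it was Gsn. Of other cells, 5 of 6 T cell markers tested were lower in distal crypts, with sums of 9.22 to 30.7 CPM against 57.5 to 84.0, as were 3 of 4 plasma cell, 2 of 4 pericyte and the 1 endothelial marker tested, while 4 of 7 myeloid markers were higher and 1 lower. The part of these cells in the collagen differences was not tested. Of 15 collagen maturation genes, 2 were higher (Pcolce, a procollagen C-proteinase enhancer, by 1.10, and Plod3, a lysyl hydroxylase, by 0.61) and 6 lower, led by Loxl3, a lysyl oxidase, at -2.81 and Bmp1, the procollagen C-proteinase, at -2.50. Of 3 breakdown genes the inhibitor Timp3 was higher by 2.99 and Timp2 lower by -2.88. Of 8 receptors, Gp6 was higher by 3.18 and 4 were lower, led by Itga2 at -1.53 and Ddr2 at -1.52.

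In untreated crypts limma without the replicate block called no collagen between genotypes. In proximal crypts of the Mtg16-/- colony 0 of 17 members were called and 0.0645% of all genes were, with 3 members at an unadjusted p under 0.05 in limma (5.96% of all genes). Col8a1 had 11.7 and 13.5 CPM in Mtg16-/- and 24.0 and 25.5 in WT, a log2 difference of -0.96 (SE 0.16, adjusted p = 0.226). Col18a1, which carries the endostatin domain, had 0.578 and 0.565 CPM against 1.89 and 1.56, a difference of -1.54 (adjusted p = 0.445), and Col28a1 0.716 and 0.424 against 1.80 and 1.66, a difference of -1.60 (adjusted p = 0.520). Both Mtg16-/- libraries were below both WT libraries for each. Over all genes 35.6% had groups that did not overlap, since 2 against 2 libraries overlap little.

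In proximal crypts of the Mtg16 T/T colony 0 of 16 members were called and 0.232% of all genes were, with 4 members at an unadjusted p under 0.05 (12% of all genes). Col8a1 had 17.8 and 11.1 CPM in Mtg16 T/T and 35.2 and 25.7 in WT, a log2 difference of -1.09 (SE 0.19, limma adjusted p = 0.207). Col18a1 had 0.790 and 1.07 CPM against 1.71 and 2.55, a difference of -1.16 (adjusted p = 0.281). Col7a1, the anchoring fibril collagen, had 0.958 and 1.74 CPM against 0.422 and 0.234, a difference of 1.97 (adjusted p = 0.244), where the Mtg16-/- difference was -0.19. None of these ranges overlapped, as held for 45.5% of all genes. An exact permutation test of 2 against 2 libraries cannot go below p = 0.333.

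Smooth muscle markers moved with these groups, since 1 Mtg16-/- and 1 Mtg16 T/T proximal library held the high sums given above and no WT library did. All 7 smooth muscle markers had positive differences in both proximal comparisons and 0 were called. So did all 8 enteroendocrine markers, with sums of 335 to 542 CPM in Mtg16-/- and 246 to 332 in its WT, and of 417 to 518 in Mtg16 T/T and 285 to 331 in its WT, neither overlapping. Pericyte markers summed to 10.9 to 25.9 CPM in Mtg16 T/T and 7.03 to 10.7 in WT. In the Mtg16 T/T comparison myeloid markers summed lower with no overlap, at 56.6 to 61.3 CPM against 75.5 to 79.2. So did plasma cell markers, at 184 to 211 against 244 to 263, and fibroblast markers, at 88.6 to 99.1 against 114 to 123, with 0 markers called. Most of the fibroblast sum was Gsn, and without it the sums overlapped, at 18.4 to 21.6 against 20.9 to 26.8. Endothelial markers summed higher with no overlap, at 3.38 to 4.32 CPM against 2.18 to 2.19. So did enteric glia markers, at 3.83 to 4.03 against 1.89 to 1.98. In the libraries low in smooth muscle markers, 1 of each genotype, Col8a1 stood at 13.5 CPM (Mtg16-/-) and 17.8 (Mtg16 T/T). In those high in them it stood at 11.7 and 11.1. The part of all these cells in the collagen values was not tested.

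In distal crypts 0 of 16 members were called in the Mtg16-/- colony and 0.239% of all genes were, with 1 member at an unadjusted p under 0.05 in limma (4.63% of all genes), 0 called by edgeR (0.21% of all genes) and 1 by DESeq2 (1.47% of all genes). That member was Col18a1, with 0.938, 1.33, 1.06 and 1.53 CPM in Mtg16-/- and 2.26, 2.27, 1.96 and 2.30 in WT, a log2 difference of -0.89 (limma adjusted p = 0.243 and DESeq2 adjusted p = 0.0467). The groups did not overlap, as held for 3.75% of all genes. Without the library labelled replicate 2 the difference was -0.95 (limma adjusted p = 0.153). Col16a1 had 19.6, 5.56, 15.2 and 12.5 CPM against 21.6, 20.1, 22.3 and 15.9, and its difference moved from -0.75 to -0.38 when replicate 2 was left out. Enteroendocrine markers moved with these groups, with positive differences and no overlap for all 8, 3 called higher (Chgb, Neurod1 and Chga) and sums of 414 to 649 CPM in Mtg16-/- and 171 to 213 in WT, and their part in the collagen values was not tested. Col8a1 had 6.31, 20.7, 4.65 and 5.95 CPM against 6.37, 5.03, 7.14 and 13.1, and its difference turned from 0.04 to -0.43. Without that library 0 members were called, 3 had an unadjusted p under 0.05 (832 of 13831 genes did), and the count over all genes moved from 33 higher and 0 lower to 136 higher and 10 lower.

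In distal crypts of the Mtg16 T/T colony 0 of 19 members were called and 0.0369% of all genes were, with 1 member at an unadjusted p under 0.05 in limma (4.65% of all genes) and 0 called by edgeR (0.0369% of all genes) or DESeq2 (0.393% of all genes). Col8a1 had 3.42, 3.54, 5.35 and 3.95 CPM in Mtg16 T/T and 9.29, 5.12 and 9.59 in WT, a log2 difference of -0.97 (adjusted p = 0.863). Col16a1 had 25.0, 20.7, 27.8 and 17.3 CPM against 16.9, 19.6 and 14.4, a difference of 0.38 (adjusted p = 0.863). Both ranges overlapped. All 8 enteroendocrine markers had positive differences with 0 called, and their sums of 218 to 438 CPM in Mtg16 T/T and 191 to 221 in WT overlapped. Their part in the collagen values was not tested. Col1a1, Col1a2 and Col3a1 in Mtg16 T/T were high in replicate 4, the library with smooth muscle markers, where Col3a1 stood at 9.09 CPM beside 0.143 to 1.08. Of the 28 maturation, 12 breakdown and 9 receptor genes, none of those tested was called in any of these 4 comparisons.

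After DSS, WT distal crypts of the T/T colony were compared with untreated ones of that colony. They came from different sequencing requests (5740 and 5094), so DSS and request cannot be told apart. Of 13566 genes 35.6% were called, 14% higher and 21.6% lower after DSS. Of 17 members 2 were higher and 3 lower. Col1a1 had 1.51, 0.752 and 1.17 CPM after DSS and 0.289, 0.478 and 0.388 before, a log2 difference of 1.54 (SE 0.35, limma adjusted p = 0.0217). Col3a1 had 3.92, 1.36 and 1.75 CPM against 0.237, 0.765 and 0.801, a difference of 2.00 (SE 0.59, adjusted p = 0.0412). In both, all DSS libraries lay above all untreated ones, at levels still far under the 531 to 985 CPM of Col1a1 in tumors.

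Col4a2 was lower after DSS, at 1.26, 1.32 and 1.20 CPM against 2.26, 2.41 and 2.09, a log2 difference of -0.78 (SE 0.20, limma adjusted p = 0.0262). Col9a3, a chain of a fibril-associated collagen, was lower at 0.0938, 0.125 and 0.120 CPM against 0.263, 0.454 and 0.233, a difference of -1.24 (adjusted p = 0.0403). Col28a1 was lower at 0.134, 0.251 and 0.653 CPM against 1.21, 1.03 and 0.853, a difference of -1.73 (adjusted p = 0.0463). None of these groups overlapped, as held for 55.3% of all genes. DESeq2 called 8 members beside 44.1% of all genes. Leaving out 1 library gave 0 to 8 called members while the share of all genes called ran from 0.00737% (without untreated WT replicate 2) to 66.9% (without DSS WT replicate 3), and each of the 5 calls was lost in 4 or 5 of the 6 fits.

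Other genes of collagen biology also differed in that comparison. Of 13 maturation genes tested, 6 were higher and 0 lower, led by P4ha2, a prolyl hydroxylase subunit, at 1.57, followed by Crtap at 0.74, Plod1 at 0.72, Colgalt1 at 0.72 and P4hb at 0.67. Of 4 breakdown genes the membrane collagenase Mmp14 was higher by 0.73. Of 7 receptors, Ddr1, a collagen-binding kinase, was higher by 0.49, and the integrin chains Itga1, Itgb1 and Itga2 were lower by -2.36, -1.31 and -1.13. Of 6 fibroblast markers tested 2 were higher, and the fibroblast sum was 442 to 510 CPM after DSS and 335 to 382 before. Of 3 pericyte markers tested 2 were higher, Pdgfrb by 1.31 and Notch3 by 1.03, with sums over the list of 9.67 to 13.1 CPM and 4.31 to 6.36, which did not overlap. Of 8 myeloid markers 2 were higher, with sums of 146 to 170 CPM and 124 to 158, which overlapped. Plasma cell markers summed to 281 to 359 CPM after DSS and 217 to 231 before, and epithelial markers to 24165 to 31620 and 21333 to 23260. Enteric glia markers summed to 3.97 to 4.95 and 2.25 to 2.48. The plasma cell, epithelial and enteric glia sums did not overlap. Their part in the collagen differences was not tested.

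Mtg16-/- crypts after DSS were lower in Col8a1 than their WT littermates. Of 14476 genes 0.629% were called, 0.38% higher and 0.249% lower, and of 25 members 1 was lower and 0 higher. Col8a1 had 1.40, 1.65, 2.62 and 1.83 CPM in Mtg16-/- and 4.73, 8.89 and 14.8 in WT, a log2 difference of -2.21 (SE 0.37, limma adjusted p = 0.0353, edgeR adjusted p = 0.0339, DESeq2 adjusted p = 3.9e-07). Over all members edgeR called 1 beside 0.601% of all genes, and DESeq2 called 3 beside 5.03%. All Mtg16-/- libraries lay below all WT ones. Leaving out 1 library lost the limma call in 6 of 7 fits (adjusted p from 0.0142 to 0.119). Col16a1 had 7.19, 5.75, 8.09 and 8.92 CPM against 19.4, 12.6 and 15.2, a difference of -1.06 (SE 0.23, limma adjusted p = 0.0794, DESeq2 adjusted p = 0.00136), again with no overlap, where 11.4% of all genes had none.

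Libraries with the same number in this experiment deviated together, so the fit with the replicate block is given beside it. Mtg16-/- replicate 4 had no WT library of its number, so the blocked differences rest on the other libraries alone. With the block 8.78% of all genes were called, 5.72% higher and 3.06% lower, and of the 25 members 4 were higher and 2 lower. Col8a1 was lower by -2.23 (adjusted p = 0.000781) and Col16a1 by -1.17 (adjusted p = 0.00288). The higher ones were fibrillar chains, Col3a1 by 2.42 (adjusted p = 0.00543), Col1a2 by 2.51 (adjusted p = 0.018), Col5a1 by 2.64 (adjusted p = 0.0184) and Col5a2 by 1.92 (adjusted p = 0.0276), all from limma. Without the block limma and edgeR called none of the 4 and DESeq2 called Col5a1 (adjusted p = 0.0175). Col1a2, for example, had 4.90, 1.15, 12.4 and 1.04 CPM in Mtg16-/- and 0.624, 0.649 and 0.859 in WT, an unblocked difference of 2.04 (adjusted p = 0.314). Without Mtg16-/- replicate 4 its unblocked difference was also 2.51, and limma without the block then called 0 members.

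A single library held much of the fibrillar signal. Mtg16-/- replicate 3 had 43.3 CPM of Col3a1, 17.7 of Col1a1 and 12.4 of Col1a2, and its summed collagen of 119.8 CPM was the highest of all crypt libraries. The other 3 Mtg16-/- libraries had 1.54 to 8.73 CPM of Col3a1 and the WT libraries 1.14 to 3.84. Without the actin-severing Gsn, the summed fibroblast markers were 56.1 to 115 CPM in Mtg16-/- and 27.1 to 38.7 in WT, and 8 of 9 fibroblast markers tested were positive with 0 called. The myeloid sum was 250 to 530 CPM against 170 to 229, with Lyz2, lysozyme of macrophages and neutrophils, called higher by 3.29 (adjusted p = 0.048). The enteroendocrine sum was 260 to 339 CPM against 137 to 218, with 7 of 8 markers positive and 0 called. Enteric glia markers summed to 5.61 to 6.43 CPM against 2.49 to 3.91. Their sum was higher in the mutant with no overlap in every crypt comparison of genotypes, untreated or after DSS. In untreated WT distal crypts most of it was Gfra3, at a median of 2.13 CPM. Whether these cells supplied the collagen differences was not tested.

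Mtg16 T/T crypts after DSS had lower Col16a1 and Col18a1 values than WT, short of a call in the main test. In limma 0 of 13648 genes were called, 0% of the table, and 1197 (8.77%) had an unadjusted p under 0.05. Among 19 members 0 were called and 6 had an unadjusted p under 0.05, with 0 called by edgeR (0% of all genes) and 2 by DESeq2 (2.45% of all genes). Col16a1 had 7.26, 9.19 and 8.53 CPM in Mtg16 T/T and 20.2, 17.2 and 17.3 in WT, a log2 difference of -1.21 (SE 0.21, limma adjusted p = 0.172, DESeq2 adjusted p = 0.000114). Col18a1 had 1.17, 0.928 and 1.36 CPM against 2.40, 2.36 and 2.34, a difference of -1.12 (SE 0.27, limma adjusted p = 0.268, DESeq2 adjusted p = 0.0186). Col4a1 had 1.24, 2.55 and 1.93 CPM against 4.35, 4.89 and 3.44, a difference of -1.27 (limma adjusted p = 0.361). None of the 3 overlapped, and 4 of 19 members had lower groups with no overlap where 8.02% of all genes did. Col8a1 had 1.37, 3.71 and 0.506 CPM against 4.09, 3.26 and 5.48, a difference of -1.67 (limma adjusted p = 0.551), and its groups overlapped. Markers of other cells moved with these groups, with 0 called. The fibroblast sum without Gsn was 36.8 to 68.8 CPM in Mtg16 T/T and 22.8 to 31.1 in WT, the enteroendocrine sum 251 to 319 and 152 to 231, and neither overlapped. All 8 myeloid markers had positive differences, with overlapping sums of 162 to 251 and 146 to 170 CPM, and 9 of 10 epithelial markers had negative ones. Their part in the collagen values was not tested.

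The difference between contrasts was then tested. For Col16a1, the Mtg16 T/T effect after DSS minus that in untreated distal crypts was -1.59 (SE 0.28, adjusted p = 0.0382), and 0.234% of 13243 genes were called. It was higher in Mtg16 T/T than in WT by 0.38 before DSS and lower by -1.21 after it, though limma called neither contrast alone. Leaving out 1 library lost the call in 9 of 13 fits (adjusted p from 0.0319 to 0.220). The replicate block, in which the unpaired Mtg16 T/T distal replicate 4 carries no weight, gave an adjusted p of 0.479. No member was called in the other 6 differences tested between contrasts. All genes were called at 0.0148% for the Mtg16-/- minus Mtg16 T/T difference after DSS, at 0.0372% and 0.0229% for the proximal minus distal difference of Mtg16-/- and Mtg16 T/T, at 0.00738% for the DSS minus untreated difference of Mtg16-/-, and at 0% for the untreated Mtg16-/- minus Mtg16 T/T and the tumor minus crypt differences. Without Mtg16-/- distal replicate 2, the 3 differences that use it called 0 members and 0.369% (DSS minus untreated), 0.067% (proximal minus distal) and 0.0149% (Mtg16-/- minus Mtg16 T/T) of all genes. For Col8a1 the Mtg16-/- effect after DSS minus that in untreated distal crypts was -2.25 (adjusted p = 0.554), and -1.78 (adjusted p = 0.168) without that library. The Mtg16-/- and Mtg16 T/T effects after DSS differed by -0.54 for Col8a1 (adjusted p = 0.808) and by 0.15 for Col16a1 (adjusted p = 0.870).

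A second set of collagens was high in the DSS crypts with high squamous markers. Summed over Krt5, Krt14, Krt15, Krt6a, Krt13, Trp63, Dsg3 and Ivl, keratins and other genes of stratified epithelium, the 7 DSS libraries of the Mtg16-/- colony (WT and Mtg16-/-) held 255 to 858 CPM. The 6 DSS libraries of the T/T colony held 2.49 to 6.36, the 23 untreated crypt libraries 0.900 to 2.55 and the tumors 79.0 to 986. Between the DSS experiments, colony and sequencing request cannot be told apart.

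Col4a5, a type IV chain of stratified epithelial basement membranes, was at 3.10 to 12.3 CPM (median 4.69) in the DSS libraries of the Mtg16-/- colony, 0 to 0.0542 in those of the T/T colony, 0 to 0.0735 in untreated crypts and 0.569 to 3.91 in tumors. Its neighbour Col4a6 was at 0.202 to 0.803 CPM in the first and at 0 in all 6 libraries of the second. Every DSS library of the Mtg16-/- colony lay above every other crypt library for both genes. Col17a1, of hemidesmosomes, was at 1.79 to 5.71 CPM against 0.183 to 0.560 in the T/T colony and 0.0184 to 0.820 in untreated crypts. Col7a1, of anchoring fibrils, was at 1.21 to 2.85 CPM against 0.167 to 0.739, but its untreated crypts reached 1.74 and overlapped. Col12a1, a fibril-associated collagen, was at 0.579 to 1.25 CPM against 0 to 0.0580 and, in untreated crypts, 0 to 0.323, and in tumors it reached 243 to 435 CPM. These levels were set side by side across tables with no test.

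**Figure D5:**
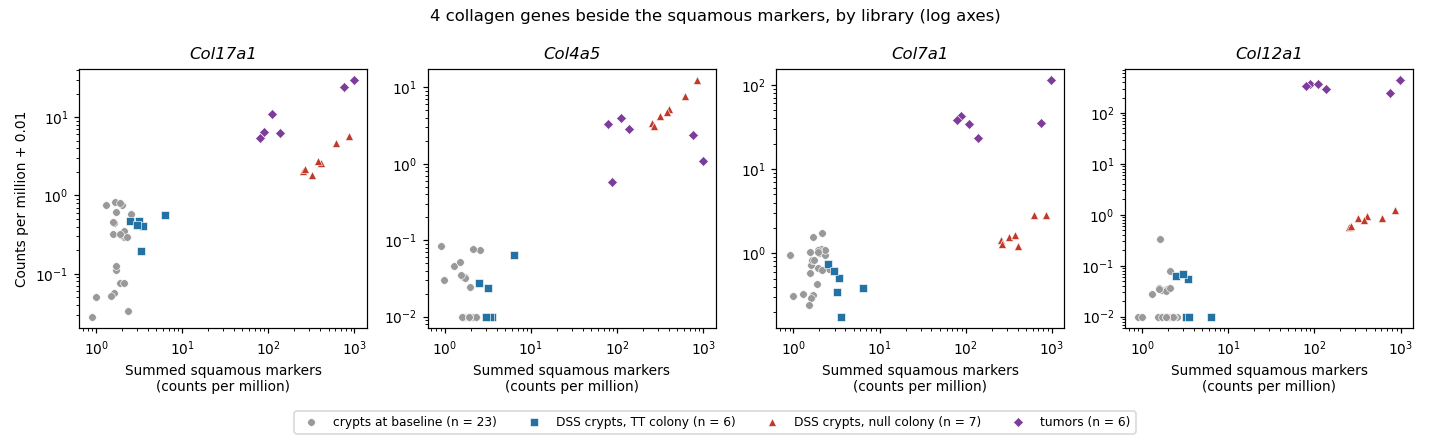
CPM of Col17a1, Col4a5, Col7a1 and Col12a1 against the summed CPM of 8 squamous markers, each point a library and both axes log, with a small constant added to the collagen values so that 0 can be drawn. The 7 DSS libraries of the Mtg16-/- colony (triangles) lie at 255 to 858 CPM of squamous markers, apart from all other crypt libraries at 0.900 to 6.36.

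Both genotypes of the colony shared this pattern. Col4a5 had 12.3, 4.23, 4.69 and 7.61 CPM in Mtg16-/- and 5.22, 3.37 and 3.10 in WT, and Col17a1 had 5.71, 1.79, 2.74 and 4.72 against 2.61, 2.05 and 2.16, with neither called and both ranges overlapping. In the same libraries Col1a1 exceeded Col3a1 in 5 of 7 (ratio 0.409 to 4.62), which it did in 0 of 6 DSS libraries of the T/T colony (0.386 to 0.792), 0 of 6 tumors (0.411 to 0.675) and 9 of 23 untreated crypt libraries. Among tumors the highest squamous sums were in WT replicate 3 at 986 CPM and Mtg16 T/T replicate 2 at 754, which also had the highest Col17a1 values, 29.4 and 24.0 CPM beside 5.37 to 10.996. WT replicate 3 also had 113 CPM of Col7a1, while Mtg16 T/T replicate 2 had 35.6, within the 23.1 to 42.7 of the other 5 tumors. Col4a5 did not follow that order, at 1.09 and 2.33 CPM in those 2 tumors and highest in Mtg16 T/T replicate 3 at 3.91, nor did Col12a1, highest in WT replicate 3 at 435 CPM and lowest in Mtg16 T/T replicate 2 at 243. The part of squamous cells in these levels was not tested.

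No collagen was called between tumors of Mtg16 T/T and WT mice. In limma 0 of 15900 genes were called, 0% of the table, with 392 (2.47%) at an unadjusted p under 0.05, while edgeR called 0% and DESeq2 24 genes (0.151%). Of 39 members tested 0 were called by limma, edgeR or DESeq2, 4 had an unadjusted p under 0.05 in limma, and the median difference was 0.02 with 21 positive. Summed collagen was 6191 ± 590 CPM (SD, n = 3) in Mtg16 T/T and 6252 ± 1337 in WT. Col3a1 had 1063, 1623 and 1440 CPM against 1113, 1158 and 1458, and Col1a1 605, 667 and 736 against 531, 613 and 985, and both overlapped. Col16a1 had 45.4, 59.8 and 48.6 CPM against 37.8, 40.2 and 42.7, which did not overlap, a log2 difference of 0.32 (SE 0.13, adjusted p = 0.998), where 5.52% of all genes did not overlap. Col8a1 had 9.24, 16.8 and 11.04 CPM against 9.35, 6.89 and 6.92, a difference of 0.63 (SE 0.25, adjusted p = 0.998). Smooth muscle markers summed to 554 to 2441 CPM in Mtg16 T/T and 348 to 682 in WT, all 7 positive and 0 called, and fibroblast markers to 2194 to 2700 against 1976 to 2193. Enteroendocrine markers summed to 72.7 to 140.5 CPM in Mtg16 T/T and 20.6 to 69.9 in WT, which did not overlap, all 8 positive and 0 called. The part of these cells in the collagen values was not tested.

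Of 9 collagens found in the enteroendocrine sets of the study's supplement, Col8a1 was the only one that limma called in any genotype comparison without the replicate block, lower in Mtg16-/- crypts after DSS. That list was drawn by the study, and 4 to 9 of its genes were tested in a comparison. Of the stromal panel limma called 0 genes in any genotype comparison without the replicate block, edgeR called 0 and DESeq2 called Col5a1, higher by 3.07 in Mtg16-/- crypts after DSS. After DSS its 13 tested genes had a median difference of 1.45 in the Mtg16-/- comparison, 11 of them positive, beside -0.0023 over all genes. The 11 breakdown genes tested there were all positive with a median of 1.13 and 0 called.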

How the data were processed

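Poly(A) RNA of colon crypts and tumors was sequenced, and per the labels the authors trimmed reads with fastp 0.20.0, quantified them with Salmon 1.3.0 against mm10 and used DESeq2 1.26.0 in R 3.6.3. The deposited values are a signal, counts divided by size factors within each of 9 tables. Whole reads were recovered in 7 tables for 100% of values (tolerance 0.05 reads) but not in the proximal Mtg16-/- and Mtg16 T/T tables, so no count model was run there. The authors' own fold changes and p-values in the tables were not used.

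Each comparison was fitted within its table with limma 3.58.1 (trend) on log2(normalised count + 1), for genes with a mean of at least 10, with Benjamini-Hochberg adjustment over all of them and a threshold of 0.05. Such fold changes understate those of low genes. CPM is a normalised count per 1000000 of the library's summed normalised counts and was set side by side across tables as a description. Differences between 2 contrasts used the summed squared standard errors. Count models on the recovered reads (edgeR 4.0.16, DESeq2 1.42.0) were alternatives chosen after seeing the data. All ran in R 4.3.3, with pandas 2.3.3 and numpy 2.4.6 for levels, after tests on simulated data. CpG, GC and E boxes were counted in RefSeq promoters.

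Members and lists were chosen with earlier results of these data known. Named genes were the called members of each comparison, the stromal panel (for naming, with Col18a1 in place of Col5a1 and Col5a2, which its sums hold), Col7a1, Col17a1 and Col27a1 where a result turned on them, and at most 5 called genes of a pathway or marker list. Other members, named by level or ratio or though not called in a comparison (Col8a1, Col16a1 and Col28a1 among them), were chosen after their values were seen. Replicate numbers were treated as pairs only in the DSS experiment of the Mtg16-/- colony, where the deviations of same-numbered libraries correlated across genes at 0.554, 0.460 and 0.317.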

Additional observations from a re-analysis of the deposited data

Results flagged for a closer look

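Dixon's test was applied to 14 collagen measures in groups of 4 libraries, 56 groups in all, and marked 10 values, where chance marks about 1 in 20. Of these, 4 were WT distal replicate 3 of the Mtg16-/- colony. Its Col4a1 was 19.5 CPM beside 2.66 to 3.33 in the other 3 libraries, its stromal panel 25.8 beside 6.13 to 7.99, its summed collagen 64.7 beside 41.4 to 43.4, and its Col18a1 1.96 beside 2.26 to 2.30. The panel and the total hold Col4a1, so these values are not separate. Its Col1a1, Col1a2 and Col3a1 did not stand apart.

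Mtg16 T/T distal replicate 4 was far from the other 3 libraries of its group in Col3a1, at 9.09 CPM beside 0.143 to 1.08, in Col1a2, at 3.38 beside 0.0476 to 0.517, and in Col1a1, at 2.57 beside 0.167 to 0.568. It also held smooth muscle markers, as given above. WT distal replicate 2 of the Mtg16-/- colony was far from its group in Col3a1, at 1.46 beside 0.113 to 0.283, and in Col1a2, at 0.817 beside 0.0870 to 0.145.

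The library labelled Mtg16-/- distal replicate 2 had 20.7 CPM of Col8a1, beside 4.65 to 6.31 in the others, and is the library whose regional genes lay near the proximal mean.

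For Col16a1 the Mtg16 T/T effect after DSS differed from that in untreated distal crypts by -1.59 on the log2 scale, by a test of the difference itself. The colonies and genotypes are the same, but the DSS and untreated libraries came from different sequencing requests.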

How the results depend on the processing

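The number of collagens called moved with the method. With the replicate block it was 1 in proximal Mtg16 T/T crypts (Col8a1, lower, limma adjusted p = 0.0189, beside 1.1% of all genes), 6 in Mtg16-/- crypts after DSS, 0 in WT crypts after DSS against untreated ones (19.7%), and 0 for the DSS minus untreated Mtg16 T/T difference. The block moved no other such count by over 1.5 times. DESeq2 on recovered reads called 1 in distal Mtg16-/- (1.47% of all genes), 3 in Mtg16-/- after DSS (5.03%), 2 in Mtg16 T/T after DSS (2.45%) and 8 of 17 in WT after DSS (44.1%). With no filter 11 of 38 were called between WT distal and proximal crypts, 5 higher and 6 lower in distal ones, beside 34.2% of all genes. With 1 library left out the counts ranged from 0 to 1 in Mtg16-/- after DSS, from 0 to 8 in WT after DSS, from 0 to 1 for the DSS minus untreated Mtg16 T/T difference, and from 6 to 9 between regions. The distal Mtg16-/- difference of Col8a1 reversed to -0.92 within sequencing request 4149, was 1.00 within request 5094 and ranged from -0.43 to 0.34 with 1 library left out. With the 100 highest genes left out of the total, mean summed collagen in CPM was 58.3 and 40.6 (proximal WT and Mtg16-/-), 63.9 and 49.9 (distal), 60.0 and 42.9 (proximal WT and Mtg16 T/T), 54.0 and 62.6 (distal), 70.9 (DSS WT, Mtg16-/- colony), 54.4 and 41.0 (DSS WT and Mtg16 T/T) and 7464 (Mtg16 T/T tumors). The stromal panel ratio of tumors to crypts was 390 with WT DSS crypts as the base. The causes were not tested. Of the values of single genes, 181 kept direction and side of the threshold with 1 library left out, 39 lost the call and 3 reversed, and under the other planned settings 131 kept both, 10 lost the call, 3 gained it and 1 reversed. Crypt levels near 0.1 CPM rest on few counts. Same-numbered libraries outside the paired DSS experiment share only a number, and their deviations did not all correlate.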
